A study of Mus musculus with 6 samples.

Results

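The genes described here mark the capillaries of stria vascularis: 28 endothelial genes, 11 genes of mural cells (pericytes and smooth muscle cells) and 7 ligand genes through which vessels are built and kept. They were chosen by name, as a list of endothelial, pericyte, smooth muscle and angiogenic genes, and all probe sets that the platform annotation assigns to them alone were taken. Of the 46 genes, 45 were measured, by 83 of 45037 probe sets, and the whole array measured 18193 genes. Ly6c1 had no probe set assigned to it alone. RNA came from microdissected stria vascularis of adult Slc26a4-/- mice, which lack functional expression of the anion exchanger pendrin, and of Slc26a4+/+ mice, which express it. The series title gives the mice as 129S6. Each genotype had 3 Affymetrix mouse 430 2.0 arrays, each array held amplified RNA pooled from 2 animals, and mice were not perfused, so that capillaries could hold blood. The Slc26a4-/- mice were a few days older on average than the Slc26a4+/+ mice. The comparison asked whether expression of vascular genes differed between the genotypes in adult tissue.

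Stria vascularis is an epithelium that contains its own dense capillary bed. Its endothelial cells are joined by tight junctions and carry efflux and uptake transporters, and pericytes and resident macrophages sit on them, which together form the blood-labyrinth barrier. Endothelial cells are built and kept by VEGF ligands acting on the receptors Kdr, Flt1 and Flt4 and by angiopoietins acting on Tek, while PDGF-B from endothelial cells acts on Pdgfrb of pericytes. Erg is a factor of the ETS family, whose members bind a GGAA core in the promoters and enhancers of many endothelial genes.

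Promoter sequences were taken for the receptors through which VEGF and angiopoietins act, Kdr, Flt1 and Tek, and for Cspg4, the mural gene with a probe set past the threshold of the test below. Each is the 250 bases before the transcription start of the RefSeq entry on build GRCm38.p6, read 5′ to 3′ on the strand of the gene, with matches to GGAAG, a longer form of the ETS core, or to its reverse complement CTTCC, in capitals.
Kdr, chr5:75978456-75978705, minus strand: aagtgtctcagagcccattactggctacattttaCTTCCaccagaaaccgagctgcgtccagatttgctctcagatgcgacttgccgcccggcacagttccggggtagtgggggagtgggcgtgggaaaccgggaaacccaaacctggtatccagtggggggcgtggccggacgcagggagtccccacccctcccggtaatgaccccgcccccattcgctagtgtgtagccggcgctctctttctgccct
Flt1, chr5:147726012-147726261, minus strand: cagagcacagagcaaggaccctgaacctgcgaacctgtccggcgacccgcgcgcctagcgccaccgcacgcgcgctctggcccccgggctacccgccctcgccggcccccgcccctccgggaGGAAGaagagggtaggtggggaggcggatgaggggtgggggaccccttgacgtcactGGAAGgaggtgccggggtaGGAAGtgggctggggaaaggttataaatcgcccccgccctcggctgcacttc
Tek, chr4:94739039-94739288, plus strand: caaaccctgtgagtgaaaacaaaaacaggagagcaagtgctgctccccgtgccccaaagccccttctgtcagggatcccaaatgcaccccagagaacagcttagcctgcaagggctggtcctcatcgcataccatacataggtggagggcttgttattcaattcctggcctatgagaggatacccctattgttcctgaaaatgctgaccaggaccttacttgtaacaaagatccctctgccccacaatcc
Cspg4, chr9:56864854-56865103, plus strand: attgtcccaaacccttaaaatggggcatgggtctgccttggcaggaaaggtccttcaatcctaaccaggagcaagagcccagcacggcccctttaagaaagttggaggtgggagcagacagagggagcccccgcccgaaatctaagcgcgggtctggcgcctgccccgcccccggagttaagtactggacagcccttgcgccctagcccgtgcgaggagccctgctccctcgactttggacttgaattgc
The Kdr window held 1 match, 216 to 212 bases before the start, and the Flt1 window held 3, the nearest of which lay 52 to 48 bases before the start. The windows of Tek and Cspg4 held no GGAAG or CTTCC. The shorter GGAA was not counted. GGAAG or CTTCC was present in 17 of 20 windows of endothelial genes, or 85.0%, in 2 of 6 windows of ligand genes, or 33.3%, and in 2 of 8 windows of mural genes, or 25.0%. It was also present in 64.1% of 32851 promoter windows of the same length. Some genes had several windows. By gene, a match was present in 14 of 15 endothelial genes, 1 of 4 ligand genes and 2 of 8 mural genes. A match describes the letters of a window and not a bound site.

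Values are signals on a linear scale that was set for each array, and for each gene the probe set with the largest mean log2 signal was used. Signals of different probe sets do not measure relative amounts of RNA. A background was set for each array from 44 probe sets of olfactory receptors, as their 95th percentile, and lay between 187 and 214 in Slc26a4-/- tissue and between 199.7 and 319 in Slc26a4+/+ tissue. Mean signals of the arrays were between 666 and 725. The 3′ to 5′ signal ratio of Gapdh, a measure of RNA integrity, was 3.70, 3.80 and 3.34 in Slc26a4-/- tissue and 2.25, 7.19 and 10.5 in Slc26a4+/+ tissue. The probe set of Slc26a4 had signals of 520.2, 717 and 618.5 in Slc26a4-/- tissue and 1354, 1262 and 793 in Slc26a4+/+ tissue (adjusted p = 0.119 by limma), but whether the probes lie in the deleted stretch is not stated, so it does not check the labels. Transcripts of the sex chromosomes also differed between genotypes. Xist, an RNA of the inactive X chromosome, had 5634, 5529.6 and 5863 in Slc26a4-/- tissue and 771, 3358 and 1022 in Slc26a4+/+ tissue. Eif2s3y, a Y-linked gene, was below background on all Slc26a4-/- arrays and had signals between 639.9 and 1541 in Slc26a4+/+ tissue. Effects of sex and of genotype cannot be told apart in these arrays, and no gene of the list passed once Xist was added to the model, in which the median endothelial estimate was 0.17 in place of 0.52.

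Of the 27 endothelial genes measured, 24 had an estimate above 0 in Slc26a4-/- stria vascularis and 3 below, and 1 passed the test. The gene that rose was Ramp2, which encodes a subunit of the adrenomedullin receptor. The threshold was an adjusted p of 0.05 in a limma fit across all probe sets, and 1.73% of all probe sets passed it in either direction. Of the endothelial genes 3.7% rose and 0% fell, against 1.88% and 0.803% of all 18193 genes. With the replicate number as a block, 2 endothelial genes passed, Ramp2 and Vwf. At an unadjusted p under 0.05 there were 10 endothelial genes with a higher estimate, or 37%, and none with a lower one, against 8.48% and 6.42% of all genes. Tie1, 1 of the 10, was below background on all arrays. In 9 of 27 endothelial genes, or 33.3%, every Slc26a4-/- array lay above every Slc26a4+/+ array, and in none did every array lie below (Tie1, 1 of the 9, was below background), against 11.2% and 9.73% of all genes. Of the 17 endothelial genes with a mean signal of at least 300 over all arrays, 8 did so, or 47.1%, and none the opposite, against 15.4% and 12.4% of the 9091 genes of that brightness. The median log2 fold change, Slc26a4-/- over Slc26a4+/+, was 0.52 over the 27 endothelial genes and -0.03 over all genes. Among genes with a mean signal of at least 300 it was 0.62 for the endothelial genes and 0.00 for all genes. These shares and medians describe the list and were not tested against other genes. In RNA of a whole tissue, more cells of a type and more RNA per cell cannot be told apart.

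Ramp2 gave signals of 4660.4, 5315.5 and 5685.5 in Slc26a4-/- tissue, against 2405, 2757 and 2702 in Slc26a4+/+ tissue. The genotypes lay far apart relative to their spread. The log2 fold change was 0.99 ± 0.14 (SE, n = 3 each), which is 1.99-fold, with an adjusted p of 0.00663 by limma. Without Slc26a4-/- replicate 2 or replicate 3 the adjusted p was 0.0562 or 0.0684. Ramp2 carries the receptor Calcrl to the cell surface. The brightest Calcrl probe set was below background on all arrays. Its second probe set, chosen here after its values were seen, had 189.7, 142 and 171 in Slc26a4-/- tissue and 64.5, 127 and 79.8 in Slc26a4+/+ tissue, of which only the first exceeded the background of its array.

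**Figure D1:**
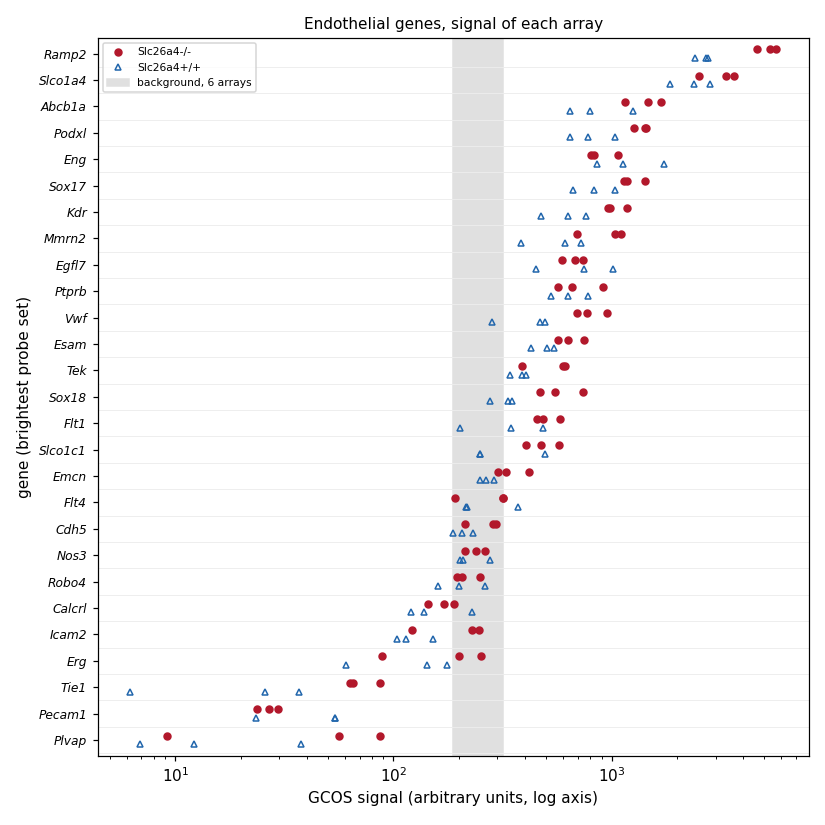
GCOS signal of the 27 measured endothelial genes (log axis, arbitrary units), 1 point per array, with Slc26a4-/- arrays as filled circles above and Slc26a4+/+ arrays as open triangles below, and the range of the 6 array backgrounds in grey. Genes run from the highest to the lowest mean signal on the linear scale, which does not order amounts of RNA. The genotypes stand apart most clearly for Ramp2 (4660.4 to 5685.5 in Slc26a4-/- and 2405 to 2757 in Slc26a4+/+).

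Among the luminal and secreted proteins, Podxl and Vwf followed Ramp2 in p. Podxl, a sialomucin of the endothelial surface, had 1262, 1423 and 1432.5 in Slc26a4-/- tissue and 648, 1033 and 782 in Slc26a4+/+ tissue, without overlap (log2 fold change 0.77 ± 0.19, SE, adjusted p = 0.0877 by limma). Its dimmer probe set was below background on all arrays. Vwf, the multimeric glycoprotein that binds platelets, had 695, 956 and 774 in Slc26a4-/- tissue and 284, 498 and 471 in Slc26a4+/+ tissue (0.98 ± 0.24, SE). The groups did not overlap, and the adjusted p was 0.0902 in the fit without a block and 0.0376 with the replicate number as a block. Emcn and Esam, another surface sialomucin and a junctional adhesion molecule, had log2 fold changes of 0.38 and 0.39, with no overlap between genotypes and adjusted p of 0.572 and 0.456. Mmrn2, a matrix glycoprotein of endothelial cells, had estimates between 0.27 and 0.74 for the 3 probe sets above background in both genotypes, none of which passed the threshold. Egfl7, a secreted protein of growing vessels, had estimates from -0.06 to 0.45 for the 3 such probe sets.

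Of the receptors of VEGF, Kdr, the main signalling receptor, had 1182, 964 and 981 in Slc26a4-/- tissue and 476, 764.5 and 631 in Slc26a4+/+ tissue. The groups did not overlap, the log2 fold change was 0.76 ± 0.20 (SE) and the adjusted p was 0.114 by limma. Flt1, which binds VEGF-A with high affinity and signals weakly, had 454, 485 and 581 in Slc26a4-/- tissue and 201, 345.5 and 486 in Slc26a4+/+ tissue, where replicate 3 lay within the range of the Slc26a4-/- arrays. It had estimates of 0.64 and 0.93 for its 2 brightest probe sets (adjusted p = 0.454 and 0.267 by limma). On the second, only 1 Slc26a4+/+ array was above background. The third was above background in Slc26a4-/- tissue only, and the fourth nowhere. Flt4, the receptor of VEGF-C, had overlapping signals of 192, 318 and 317.5 in Slc26a4-/- tissue and 218, 215 and 371 in Slc26a4+/+ tissue. Kdr, Flt1 and Flt4 were chosen for their role as VEGF receptors, after their values were seen.

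The receptors and partners of the angiopoietin and TGF-beta pathways did not pass the threshold. Tek, the angiopoietin receptor, had an estimate of 0.47 ± 0.22 on the log2 scale (SE, adjusted p = 0.460), and Ptprb, the phosphatase that acts on Tek and on VE-cadherin, had 0.13 ± 0.22 (adjusted p = 0.873 by limma). The second Ptprb probe set had 0.46 ± 0.31 (SE, adjusted p = 0.631 by limma), with overlap. Tie1, the orphan partner of Tek, had signals of 65.3, 87.1 and 63.2 in Slc26a4-/- tissue and 36.9, 25.9 and 6.2 in Slc26a4+/+ tissue, all below background. Eng, the endothelial co-receptor of TGF-beta, had the lowest estimate of the endothelial genes measured above background: 802, 1075 and 827 in Slc26a4-/- tissue and 856, 1128 and 1746 in Slc26a4+/+ tissue (-0.41 ± 0.25, SE, adjusted p = 0.578 by limma). Its other probe set had 0.10 ± 0.26 (SE), and on both the Slc26a4+/+ replicate 3 was the highest array.

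The transporters of the capillary barrier had larger mean signals in Slc26a4-/- tissue, with overlap on the brightest probe sets. Slco1a4, an uptake transporter of organic anions, had 2527, 3634 and 3331 in Slc26a4-/- tissue and 1856, 2815 and 2388 in Slc26a4+/+ tissue (0.43 ± 0.19, SE, adjusted p = 0.419 by limma). Slco1c1, a thyroxine transporter, had 575, 476 and 405 in Slc26a4-/- tissue and 496, 249.6 and 248 in Slc26a4+/+ tissue (0.62 ± 0.29, SE, adjusted p = 0.457). Without Slc26a4+/+ replicate 1 the Slco1a4 estimate was 0.27. The overlap came from Slc26a4+/+ replicate 2 for Slco1a4 and Slc26a4+/+ replicate 1 for Slco1c1. For Slco1c1 that array was the only Slc26a4+/+ array above background. Abcb1a, the efflux pump P-glycoprotein, had 1149.9, 1681 and 1474 in Slc26a4-/- tissue and 795, 1256 and 647 in Slc26a4+/+ tissue (0.71 ± 0.25, SE, adjusted p = 0.260 by limma). On its second probe set the genotypes did not overlap, with 702, 1143 and 1086 in Slc26a4-/- tissue and 470.1, 510.3 and 209.8 in Slc26a4+/+ tissue (1.37 ± 0.34, SE, adjusted p = 0.0886). The signal of 209.8 was below the background of its array, 319.

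Of the transcription factors, Sox18 had 471, 736 and 552 in Slc26a4-/- tissue and 334, 351.5 and 277 in Slc26a4+/+ tissue (0.85 ± 0.22, SE, adjusted p = 0.108 by limma). Sox17, like Sox18 a SoxF factor of endothelial cells, had 1141, 1429.9 and 1180.1 in Slc26a4-/- tissue and 834, 1040.5 and 665 in Slc26a4+/+ tissue (0.58 ± 0.19, SE, adjusted p = 0.230). In neither did the genotypes overlap on the brightest probe set. On the dimmer Sox17 probe set they overlapped, and all Slc26a4+/+ arrays were below background. Erg was above background on 1 array only, of Slc26a4-/- tissue.

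The markers most often used to define endothelium were at or near background. Pecam1 had 23.7, 29.6 and 27.0 in Slc26a4-/- tissue and 23.4, 54.1 and 53.8 in Slc26a4+/+ tissue, below background on all arrays. Cdh5, which encodes VE-cadherin, had 213, 296 and 286 in Slc26a4-/- tissue, all above background, and 188, 233 and 206 in Slc26a4+/+ tissue, all below it. The Cdh5 signals of the genotypes overlapped (adjusted p = 0.672 by limma). With each Slc26a4+/+ signal raised to the background of its array, the mean was 1.02-fold higher in Slc26a4-/- tissue. This bound carries no sampling error, so no difference in Cdh5 was established. Plvap, of the diaphragms of fenestrated capillaries, was below background on all arrays, and so were Pecam1, Tie1 and the brightest Calcrl probe set. Nos3, the endothelial nitric oxide synthase, had an estimate of 0.06 ± 0.25 (SE). Icam2 was above background on 2 Slc26a4-/- arrays and on no Slc26a4+/+ array, and Robo4 likewise on 2 and none. The Robo4 signals overlapped, with 196, 249 and 206 in Slc26a4-/- tissue and 161, 201 and 262 in Slc26a4+/+ tissue. Its highest signal, of Slc26a4+/+ replicate 3, counted as below only because the background of that array was 319. In all, 22 of the 27 endothelial genes were above background on at least 2 arrays of a genotype, among them Kdr, Flt1, Tek, Vwf, Emcn and Esam, and 4 were below it on every array.

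The angiogenic ligands gave no common direction. None of the 7 passed the threshold, 1 had a higher and 2 a lower estimate at an unadjusted p under 0.05 (14.3% and 28.6%, against 8.48% and 6.42% of all genes), and the median log2 fold change was -0.12. The higher one was Angpt2, which was above background on 1 array only. All Slc26a4-/- arrays lay below all Slc26a4+/+ arrays for 3 genes, or 42.9%, 1 of them Pgf, which was below background, and above them for 1 gene, or 14.3%, against 9.73% and 11.2% of all genes. Vegfb, a ligand of Flt1, had 1596, 1435.5 and 1439 in Slc26a4-/- tissue, against 1697, 2330.2 and 2690.3 in Slc26a4+/+ tissue (-0.56 ± 0.18, SE, adjusted p = 0.210 by limma). The Slc26a4+/+ arrays were widely spread, and without Slc26a4+/+ replicate 1 the estimate was -0.75 with an adjusted p of 0.0201. Without any other array it was between -0.61 and -0.42, with an adjusted p of 0.316 or more. Vegfc, the ligand of Flt4, had 1414, 1460.3 and 1299 in Slc26a4-/- tissue and 2151, 1913 and 1675 in Slc26a4+/+ tissue (-0.45 ± 0.15, SE, adjusted p = 0.214). The 2 other Vegfc probe sets had -0.51 and -0.61, and on 1 of them the genotypes overlapped. Vegfa, the ligand of Kdr and Flt1, had 1175, 1248 and 1321 in Slc26a4-/- tissue and 1654, 1265 and 1189 in Slc26a4+/+ tissue, which overlap (-0.12 ± 0.16, SE, adjusted p = 0.834 by limma). Its second probe set also overlapped, with -0.69 ± 0.39 (SE, adjusted p = 0.551 by limma). That probe set was above background on 1 Slc26a4-/- array and 2 Slc26a4+/+ arrays.

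Angpt2, an angiopoietin made by endothelial cells that can oppose Angpt1, had 198, 145 and 160.2 in Slc26a4-/- tissue and 86.6, 36.1 and 120.3 in Slc26a4+/+ tissue. The groups did not overlap, yet 1 array alone, of Slc26a4-/- tissue, was above background (adjusted p = 0.349 by limma). Pdgfb, which recruits pericytes, had 352, 415 and 313 in Slc26a4-/- tissue and 148, 275 and 315 in Slc26a4+/+ tissue (0.61 ± 0.30, SE, adjusted p = 0.483). Slc26a4+/+ replicate 3 overlapped the Slc26a4-/- arrays, and without Slc26a4+/+ replicate 1 the estimate was 0.28. Of the Slc26a4+/+ arrays, only replicate 2 was above background for Pdgfb. Pgf, which signals through Flt1, and Angpt1, the activating ligand of Tek, were below background on all arrays.

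**Figure D2:**
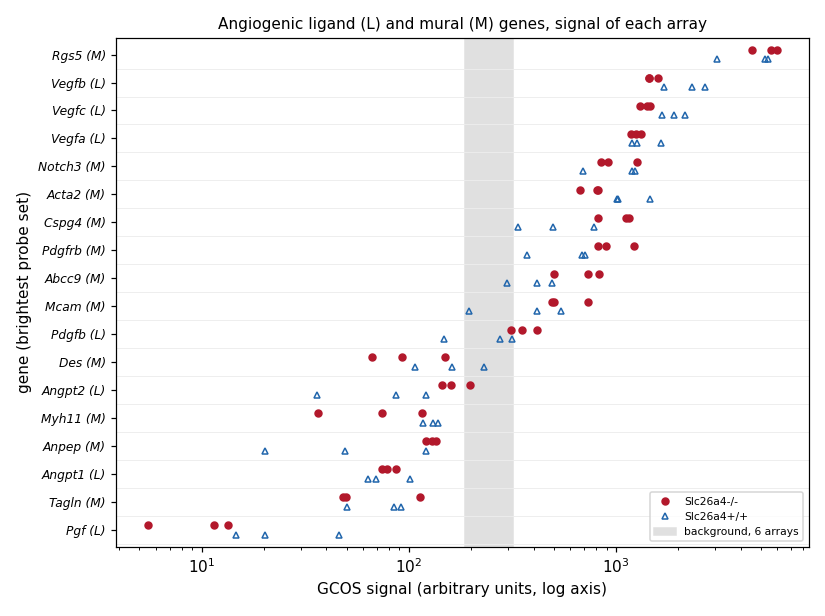
GCOS signal of the 7 angiogenic ligand genes (L) and 11 mural genes (M) on each array (log axis, arbitrary units), with Slc26a4-/- arrays as filled circles above, Slc26a4+/+ arrays as open triangles below and the range of the 6 backgrounds in grey. Vegfb, Vegfc and Acta2 lie lower and Cspg4, Pdgfrb and Abcc9 higher on all 3 Slc26a4-/- arrays, while Rgs5 and Notch3 overlap.

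Of the 11 mural genes, 6 had estimates above 0 and 5 below, and 3 of the lower ones, Des, Myh11 and Tagln, were below background on all arrays. Of the 7 with a mean signal of at least 300, 5 had estimates above 0, and the others were Acta2 and Notch3. By the brightest probe set none of 11 passed the threshold, and the median log2 fold change was 0.26. The median was -0.0033 without Slc26a4+/+ replicate 1 and -0.027 with the mean of all probe sets. At an unadjusted p under 0.05 there were 3 genes with a higher estimate, or 27.3%, and 1 with a lower one, or 9.09%, against 8.48% and 6.42% of all genes. Every Slc26a4-/- array lay above every Slc26a4+/+ array for 4 genes, or 36.4%, and below for 2 genes, or 18.2%, of which Anpep and Myh11 were below background, beside the 11.2% and 9.73% of all genes given above. Over the 7 mural genes with a mean signal of at least 300 the median was 0.67.

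Cspg4, the NG2 proteoglycan of the pericyte surface, was the only mural gene with a probe set past the threshold. That probe set had 1158, 865 and 1026 in Slc26a4-/- tissue, against 282, 375.5 and 328 in Slc26a4+/+ tissue, which is 1.63 ± 0.19 on the log2 scale (SE, adjusted p = 0.00276 by limma). All Slc26a4-/- arrays lay far above all Slc26a4+/+ arrays. The brighter probe set, which stands for the gene, had 1122, 821 and 1160.2 in Slc26a4-/- tissue and 336, 495 and 785 in Slc26a4+/+ tissue (1.01 ± 0.29, SE, adjusted p = 0.149). Here the Slc26a4+/+ arrays were further apart, and the adjusted p was 0.0269 without Slc26a4+/+ replicate 3 and between 0.139 and 0.475 without any other array. The adjusted p of the first probe set was 0.0800 without the intensity trend of the fit, 0.496 with the methods' t-test and 0.379 with Xist in the model.

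Of the other pericyte genes, Pdgfrb, Abcc9 and Mcam also had estimates above 0, none of which passed. Pdgfrb, the receptor of PDGF-B, had 817, 1214 and 889.8 in Slc26a4-/- tissue and 369.9, 711 and 685 in Slc26a4+/+ tissue (0.76 ± 0.27, SE, adjusted p = 0.268 by limma). Abcc9, the regulatory subunit of the ATP-sensitive potassium channel of pericytes, had 501, 830.4 and 731 in Slc26a4-/- tissue and 299, 489.8 and 414 in Slc26a4+/+ tissue (0.78 ± 0.25, SE, adjusted p = 0.221). In both, by the brightest probe set, all Slc26a4-/- arrays lay above all Slc26a4+/+ arrays, narrowly in Abcc9. On the second Abcc9 probe set the genotypes overlapped, and all Slc26a4+/+ arrays were below background. Without Slc26a4+/+ replicate 1 the Pdgfrb estimate was 0.46. Mcam, a cell adhesion molecule of pericytes and endothelium, overlapped (0.67 ± 0.35, SE, adjusted p = 0.508 by limma), and Anpep, a peptidase of the pericyte membrane, was below background on all arrays.

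Rgs5, a GTPase-activating protein used as a pericyte marker, had 4506, 5588 and 5984 in Slc26a4-/- tissue and 3084, 5421 and 5248 in Slc26a4+/+ tissue. The groups overlapped, and the Slc26a4+/+ replicate 1 was the lowest array (0.26 ± 0.22, SE, adjusted p = 0.718 by limma). Its 4 probe sets had estimates of 0.26, 0.28, -0.74 and 0.09, none past the threshold, and without Slc26a4+/+ replicate 1 the first was -0.0033. Notch3, the Notch receptor of mural cells, had 848.5, 1261 and 911 in Slc26a4-/- tissue and 691, 1192 and 1231 in Slc26a4+/+ tissue (-0.02 ± 0.25, SE, 95% confidence interval -0.57 to 0.53). Its direction changed between settings.

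Of the contractile genes among the 11 mural genes, Acta2 alone was above background. This smooth muscle actin had 811, 673 and 817 in Slc26a4-/- tissue, against 1026, 1011 and 1457 in Slc26a4+/+ tissue, without overlap (-0.59 ± 0.18, SE, adjusted p = 0.204 by limma). Myh11, Tagln and Des, which encode smooth muscle myosin, transgelin and desmin, were below background on all arrays. Of the 11 mural genes, 7 were above background on at least 2 arrays of a genotype and 4 were below it throughout.

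**Figure D3:**
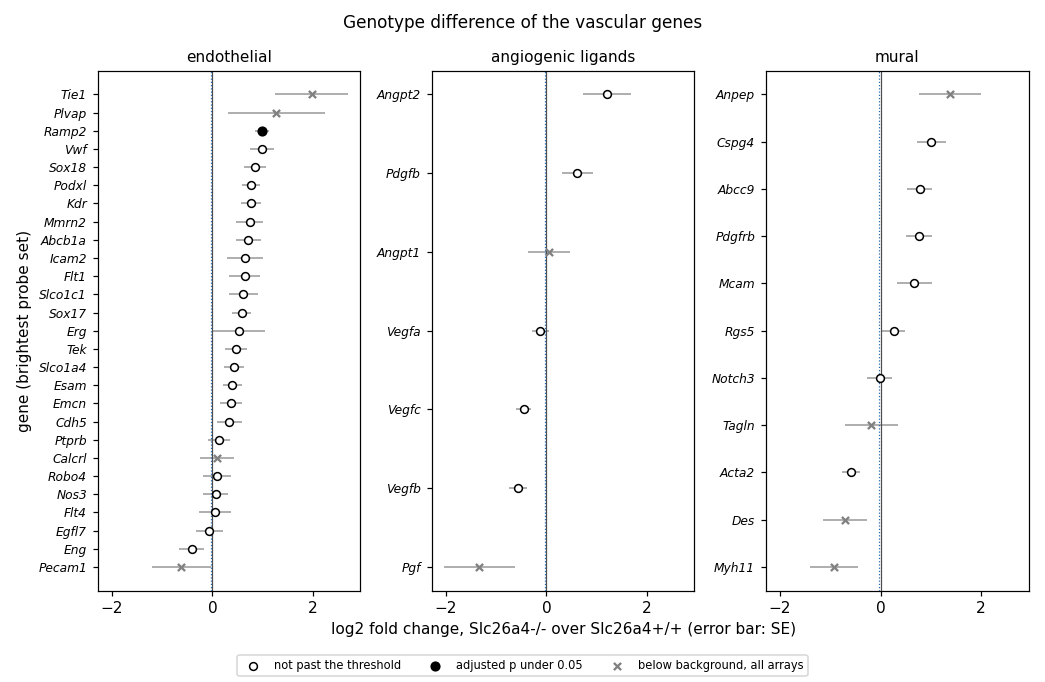
Log2 fold change, Slc26a4-/- over Slc26a4+/+, of each measured gene by its brightest probe set, with SE as the error bar and the median of all genes as a dotted line. Of the endothelial genes 24 have estimates above 0 and 3 below, and the filled circle is Ramp2, the only one with an adjusted p under 0.05, while crosses mark genes below background on all arrays. Estimates of Cdh5, Icam2, Robo4, Erg and Angpt2, which were below background on every Slc26a4+/+ array, are no measured folds.

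**Figure D4:**
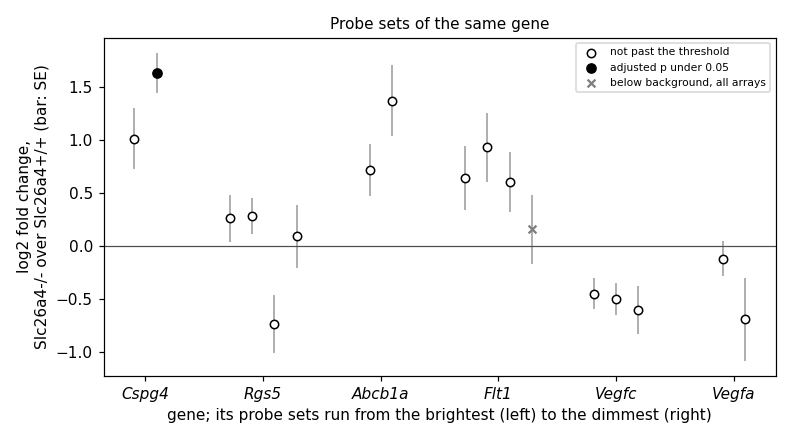
Log2 fold change, Slc26a4-/- over Slc26a4+/+ (y axis, error bar SE), of every probe set of 6 genes, from the brightest to the dimmest probe set of each gene. The probe sets of Vegfc lie close together between -0.61 and -0.45, those of Rgs5 lie between -0.74 and 0.28, and the filled circle is the Cspg4 probe set at 1.63.

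The level of each group was also followed array by array, as the median over its genes of the deviation from each gene's mean over the 6 arrays. In log2 units, the endothelial genes gave -0.01, 0.43 and 0.30 for Slc26a4-/- and -0.38, -0.06 and -0.28 for Slc26a4+/+. Slc26a4-/- replicate 1 was the nearest to the Slc26a4+/+ arrays, 0.01 below the mean. The mural genes gave -0.11, 0.20 and 0.30 for Slc26a4-/- and -0.53, 0.16 and 0.12 for Slc26a4+/+, so the genotypes overlapped and Slc26a4+/+ replicate 1 was the lowest. The ligands gave -0.15, -0.06 and 0.01 for Slc26a4-/- and -0.09, -0.04 and 0.14 for Slc26a4+/+. The median over all genes was between -0.09 and 0.14 on the 6 arrays.

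**Figure D5:**
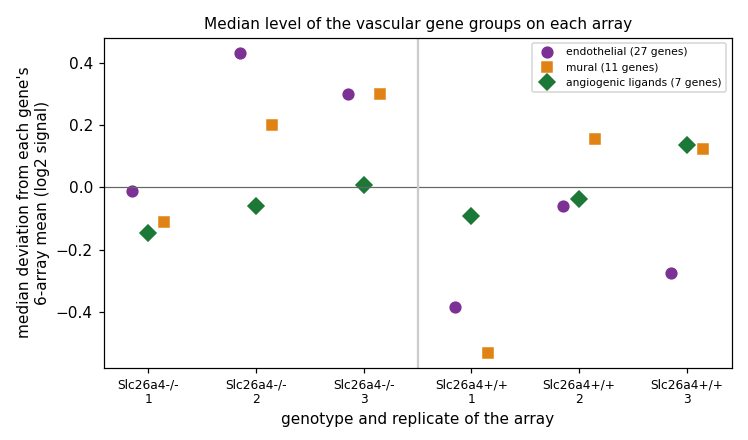
Median deviation of the endothelial, mural and ligand genes from each gene's 6-array mean (y axis, log2 signal) on each of the 3 Slc26a4-/- and 3 Slc26a4+/+ arrays (x axis). Endothelial medians lie between -0.01 and 0.43 in Slc26a4-/- and between -0.38 and -0.06 in Slc26a4+/+, and mural medians overlap.

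Further genes of the same pathways were taken from lists chosen with earlier results of these data known. Of 50 measured genes of VEGF, angiopoietin, Notch, TGF-beta and sphingosine phosphate signalling, 4 rose and none fell, with a median log2 fold change of 0.20, beside the 1.88% that rose and 0.803% that fell of all genes. Nrp1, a co-receptor of VEGF-A and of semaphorins, had 2291, 2263.5 and 2334 in Slc26a4-/- tissue and 1067, 889 and 678 in Slc26a4+/+ tissue (1.41 ± 0.18, SE, adjusted p = 0.0037 by limma). Nrp2, a co-receptor of VEGF-C, had 5297.5, 4864 and 5614 in Slc26a4-/- tissue and 3611, 3190.5 and 3325 in Slc26a4+/+ tissue (0.64 ± 0.13, SE, adjusted p = 0.0422). Tgfb3, a TGF-beta ligand, had 1083, 870.5 and 863 in Slc26a4-/- tissue and 511, 479 and 314.5 in Slc26a4+/+ tissue (1.13 ± 0.22, SE, adjusted p = 0.032 by limma). Pdgfd, a ligand of Pdgfrb, had 390.3, 461 and 388 in Slc26a4-/- tissue and 137, 77.1 and 56.0 in Slc26a4+/+ tissue, all below background, and was at least 1.60-fold higher in Slc26a4-/- tissue (adjusted p = 0.0115).

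Of 33 measured genes of capillary barriers and caveolae, 6 rose and none fell, with a median of 0.37, beside the same 1.88% and 0.803% of all genes. Cav1, the coat protein of caveolae, had 6872, 6276 and 6719 in Slc26a4-/- tissue and 2045, 2105 and 2022 in Slc26a4+/+ tissue (1.69 ± 0.12, SE, adjusted p = 0.000171 by limma). Cavin2, another caveolar coat protein, had 1450.0, 1311 and 1353.5 in Slc26a4-/- tissue and 593, 898 and 728 in Slc26a4+/+ tissue (0.91 ± 0.18, SE, adjusted p = 0.034). Slc7a5, a carrier of large neutral amino acids, had 2202, 1819.6 and 2020.4 in Slc26a4-/- tissue and 532, 673.5 and 561 in Slc26a4+/+ tissue (1.78 ± 0.16, SE, adjusted p = 0.000483 by limma). Abcg2, an efflux pump, had 1589, 1812 and 1996 in Slc26a4-/- tissue and 1047, 1009 and 611 in Slc26a4+/+ tissue (1.05 ± 0.21, SE, adjusted p = 0.0432). In Cav1, Cavin2, Slc7a5 and Abcg2 the genotypes did not overlap. Procr, the receptor of protein C, had 375, 487 and 435 in Slc26a4-/- tissue and 95.6, 82.8 and 40.0 in Slc26a4+/+ tissue, all below background, and was at least 1.67-fold higher in Slc26a4-/- tissue (adjusted p = 0.00692 by limma). Icam1, an adhesion molecule for leukocytes, passed with 276, 286 and 214 in Slc26a4-/- tissue and 88.3, 72.1 and 76.9 in Slc26a4+/+ tissue, the last all below background (adjusted p = 0.0253). Cldn5, the claudin of endothelial tight junctions, had 1129.7, 1338 and 1311 in Slc26a4-/- tissue and 998, 1331 and 1529 in Slc26a4+/+ tissue (-0.01, adjusted p = 0.988). Several of these genes, Cav1, Nrp1, Slc7a5 and Icam1 among them, are also expressed by other cell types.

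Of 28 measured contractile and other mural genes, none rose and 1 fell, with a median of -0.09, beside 1.88% and 0.803% of all genes. Rgs4, a GTPase-activating protein of the family of Rgs5, had 3013, 3238 and 2365 in Slc26a4-/- tissue and 8252, 7598 and 6781 in Slc26a4+/+ tissue (-1.40 ± 0.16, SE, adjusted p = 0.00224 by limma). It is also expressed outside mural cells.

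Markers of other cells differed between the same arrays, and their counts stand beside the 1.88% of all genes that rose and the 0.803% that fell. Of 14 measured macrophage markers 9 rose, and their summed signal was between 51261 and 51991 in Slc26a4-/- tissue and between 6709 and 9878 in Slc26a4+/+ tissue. Of the defining macrophage markers, Cd68 was below the background used here on all Slc26a4+/+ arrays, although the authors called it present on all of them. Of 12 fibrocyte and fibroblast markers 6 rose (summed signal 15027 to 16705 in Slc26a4-/- and 8722 to 12447 in Slc26a4+/+), and of 7 marginal cell markers 2 fell (39329.9 to 41345 in Slc26a4-/- and 52725 to 70041.5 in Slc26a4+/+). Of 7 markers of intermediate and basal cells 1 rose (75289.6 to 76959 in Slc26a4-/- and 73253.5 to 81682 in Slc26a4+/+). None of 5 red blood cell genes passed, with summed signals of 519.9 to 818 in Slc26a4-/- and 826 to 2088 in Slc26a4+/+, and none of 5 platelet genes passed, with 801 to 1217 in Slc26a4-/- and 852.5 to 1087 in Slc26a4+/+. None of 4 lymphatic genes passed, with 2304 to 2570.3 in Slc26a4-/- and 1756 to 2186 in Slc26a4+/+, and the lymphatic markers Prox1 and Lyve1 were below background on all arrays. None of 7 genes of skeletal muscle, cartilage and bone passed, with 558 to 956 in Slc26a4-/- and 505 to 1229 in Slc26a4+/+. The part of these cells in the vascular results was not tested.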

How the data were processed

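The authors isolated RNA from microdissected stria vascularis of adult mice, pooled 2 animals per array, amplified it in 2 rounds and hybridised Affymetrix mouse 430 2.0 arrays. The deposited values are linear signal intensities that GCOS had background-corrected and scaled array by array, 1 for every probe set. Its version, the scaling target and per-array detection calls: not given in the sources used here. Of 45101 probe sets, 64 controls were left out. 34945 had 1 gene symbol, 932 several and 9160 none, by the platform annotation, and 34741 of those with 1 symbol were matched to RefSeq by gene number with 0 symbols changed. Signals below 1 were set to 1 (172 values) and log2 was taken.

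Genotypes were compared with limma 3.58.1 in R 4.3.3 (lmFit, then eBayes with an intensity trend) over all 45037 probe sets, with Benjamini-Hochberg adjustment and a threshold of 0.05. Fold changes are Slc26a4-/- over Slc26a4+/+. For each gene the probe set with the largest mean log2 signal was used. Where all arrays of 1 genotype were below background, only a bound of the fold is given, the mean of the brighter genotype over that of the dimmer one, taken on the log2 scale with each dim signal raised to the background of its array. Precision is limited by the number of arrays.

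The gene lists and the rule for named genes were chosen with earlier results of these data known. By that rule, values of every array are given for genes of the 46 with a probe set past the threshold, for the 4 genes of each group with the smallest p, for the 3 with the highest signal and for genes that did not overlap with a log2 fold change of at least 1 and signals above background. Other genes with values, Kdr, Flt1, Flt4, Eng, Sox17, Slco1c1, Pecam1, Cdh5 and Tie1 among them, were chosen after their values were seen.

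Same-numbered arrays deviated from their genotype means together (r = 0.31, 0.20 and 0.15 over 14199 probe sets above background on all arrays; Slc26a4-/- replicate 2 with Slc26a4+/+ replicate 3 gave 0.16 and the other unlike pairs were below 0), so a fit with the replicate number as a block was also made. No source says what the numbers share. The methods name paired t-tests but state no pairing of the arrays, so the methods' t-test was paired here by replicate number. Alternatives were pseudocounts of 16 and 64, centring on the 75th percentile or on the median, quantile normalization, a mean signal of at least 300, no intensity trend, array weights, the methods' t-test, the Xist signal as a covariate, averaging the probe sets of a gene, other background percentiles and leaving out each array. Promoter windows came from RefSeq, build GRCm38.p6, where 27 of the 46 genes had an entry. The main fit was tested on simulated data, and the alternatives were not.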

Additional observations from a re-analysis of the deposited data

How the results depend on the processing

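The count of endothelial genes past the threshold was 1, and 11 of 18 alternatives left it within 1.5 times. It was 0 without the intensity trend, with the methods' t-test and with the Xist covariate, 2 with the replicate number as a block (Vwf with Ramp2), 5 with array weights, and 0 to 1 when 1 array was left out (0 without Slc26a4-/- replicate 2 or 3). With the methods' t-test no probe set of the array passed, so its 0 is not particular to these genes. Ramp2 stayed above 0 under all alternatives (0.84 to 1.07) with adjusted p from 0.00043 to 0.464. The count of mural genes, 0, was 2 with array weights, 1 with the mean of all probe sets and 0 to 1 when 1 array was left out (1 without Slc26a4+/+ replicate 3). The count of ligand genes, 0, was 3 with array weights and 0 to 1 when 1 array was left out (1 without Slc26a4+/+ replicate 1). The median log2 fold change of the endothelial genes was between 0.17 and 0.64 under the alternatives, that of the mural genes between -0.31 (Xist covariate) and 0.67 (mean signal of at least 300) and that of the ligands between -0.41 (mean of all probe sets) and 0.09 (Xist covariate). The block changed no other call of these genes. The Cspg4 probe set past the threshold had an adjusted p of 0.0800 without the trend, 0.496 with the methods' t-test and 0.379 with the Xist covariate. Over all probe sets the count was 778, of which 68.8% were higher. It was 448 (80.1% higher) after centring on the median, 114 without the trend, 4084 (58.1% higher) with array weights, 0 with the methods' t-test, 27 with the Xist covariate, 832 with the block and 219 to 1714 when 1 array was left out, within 1.5 times only without Slc26a4+/+ replicate 3 and highest without Slc26a4+/+ replicate 1. Direction was followed only for the genes named by the rule above, and it turned for 5 of them, none of which passed. With the Xist covariate Slco1a4 had -0.057, Abcb1a -0.064, Rgs5 -0.31 and Vegfa 0.11. Rgs5 had -0.027 by the mean of its probe sets, and Notch3 0.061 after centring on the median. With 1 array left out, Rgs5 was between -0.0033 and 0.40, Notch3 between -0.29 and 0.13 and Vegfa between -0.21 and 0.023. The causes were not tested. Signals near background limit Cdh5, Pecam1, Tie1, Angpt2, Slco1c1, Pdgfb and the second probe sets of Flt1 and Abcb1a.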
